A study of Trichoplusia ni and Spodoptera exigua with 20 samples.

Results

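These data describe 300 *S*. *exigua* genes whose RNA was abundant in the fat body of control replicates 2 and 3 but already low in control replicate 1. Their median in control 1 was a little above those in the libraries of larvae consuming SFN or TSA. The genes were chosen from the 12380 genes of the normalized *S*. *exigua* table. The tables of both species together hold 22990 genes. The choice used the measured values themselves. A gene was taken when its mean normalized value over controls 2 and 3 was at least 20 and when, on the scale of log2(value + 1), the lower of these controls lay at least 1 above the highest of the other 7 libraries. The 100 genes most abundant in the controls were left out. This gave 364 genes, of which the 300 with the largest gap were kept. A normalized value is the count of a gene divided by a factor of its library, which reflects the library's total and a TMM (trimmed mean of M-values) scaling.

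*S*. *exigua*, the beet armyworm, is a generalist moth, and its larvae were reared singly on an artificial diet until about Day 10. All libraries came from wild-type larvae that had received ethanol on the diet, which was evaporated before feeding. Control larvae (3 libraries) received the ethanol only, SFN larvae (3 libraries) also received 70 mM sulforaphane, and TSA larvae (3 libraries) also received 330 µM trichostatin A. Each library pooled the fat bodies of 3 to 5 larvae, so that the spread between libraries is that between pools. In whole tissue, a lower RNA level from fewer cells of a type cannot be told apart from less RNA per cell. The library codes in the labels begin alike for all 9 libraries. Total counts ran from 24984839 to 35157218 in 8 of the libraries and were 6352561 in SFN replicate 2.

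The fat body is the organ in which insects store fat, glycogen and protein, and it carries out much of the intermediary metabolism and protein secretion that vertebrates divide between liver and adipose tissue. Histone deacetylases (HDACs) remove acetyl groups from histones, which generally favours more compact chromatin. SFN is an isothiocyanate released from cruciferous plants, and TSA is a microbial hydroxamic acid used as a strong HDAC inhibitor. The files and the tables at hand do not pair the *S*. *exigua* identifiers with gene names. The roles of these genes, the defining markers of the fat body and those of other tissues could therefore not be examined, and no sequence is shown.

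In controls 2 and 3 the median normalized value of the 300 genes was 110 and 86.3. In control 1 it was 10.6. The SFN libraries had medians of 8.58, 6.02 and 6.44, and the TSA libraries 7.73, 7.94 and 5.78. The drop from controls 2 and 3 to the other libraries was required by the choice of genes and is not a result. The gap, the value on which the genes were ranked, had a median of 1.94 on the log2 scale and reached 7.83. As a share of all counts, the 300 genes took 6.37% in control 2 (95% Wilson interval 6.36% to 6.37%) and 6.60% in control 3 (6.59% to 6.61%). Their share was 0.864% in control 1 (0.861% to 0.867%). In the treated libraries it ran from 0.744% in TSA replicate 3 (0.741% to 0.747%) to 0.966% in SFN replicate 1 (0.963% to 0.970%). The share in control 1 thus lay within the range of the 6 treated libraries, and the share itself does not use the TMM factors. These intervals cover counting error only.

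**Figure D1:**
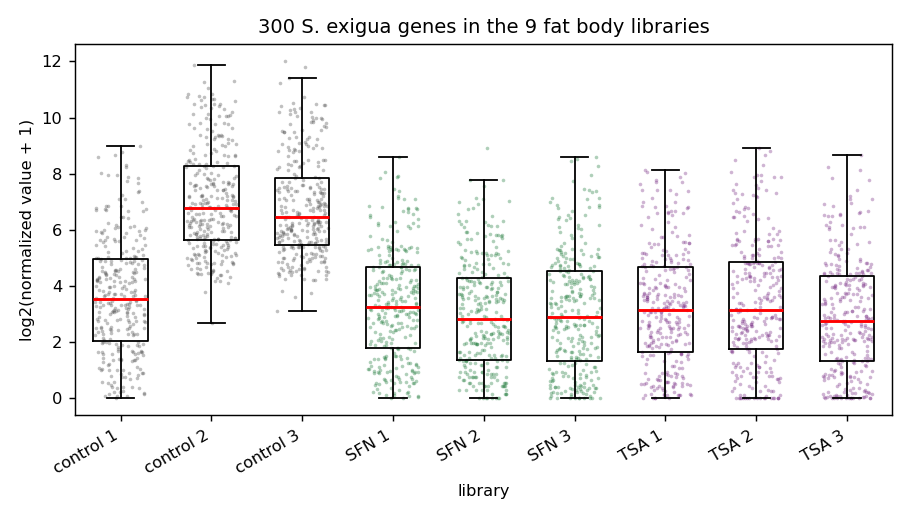
Levels of the 300 genes in each of the 9 *S*. *exigua* fat body libraries, as log2(normalized value + 1); each point is a gene, boxes give the quartiles with the median in red, and whiskers reach the last gene within 1.5 box lengths. Control 1 has a median normalized value of 10.6, a little above the medians of 5.78 to 8.58 in the 6 treated libraries. Controls 2 and 3 have medians of 110 and 86.3.

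The order of the genes by level was also compared between libraries. Across the 300 genes, Spearman's rho between controls 2 and 3 was 0.902. Control 1 had rho values of 0.563 and 0.610 with the other controls but 0.791 to 0.885 with the treated libraries, which had 0.807 to 0.949 among themselves. These correlations describe genes that share each library's depth and were chosen on these libraries. The choice itself placed control 1 with the treated libraries, so nothing is read from where its correlations lay. Over the 12080 genes outside the set, the median absolute difference of control 1 from controls 2 and 3 was 0.52 and 0.58 on the log2(value + 1) scale, and from the treated libraries it was 0.42 to 0.72, with the largest value for the shallow SFN replicate 2.

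The 300 genes are part of a larger set that was high in controls 2 and 3. Of 3631 genes with a mean of at least 20 in controls 2 and 3 outside the 100 most abundant, 853 had both of these controls at least 1 log2 unit above every treated library. In 364 of the 853, control 1 was also at least 1 below both controls, which are the genes that met the thresholds. Control 1 was at or below the highest treated library in 220 of the 853. In 436 it was at least 1 above every treated library and less than 1 below the lower of controls 2 and 3, and in 42 it was not below that control at all. To place control 1 for each gene, its level was expressed as a position from 0 at the mean of the treated libraries to 1 at the mean of controls 2 and 3. Positions of 0.8 to 1 were held by 337 genes, positions under 0.2 by 134 between 0 and 0.2 and 87 below 0, and the middle range of 0.4 to 0.6 by only 74. A further 98 genes were at 0.2 to 0.4, 118 at 0.6 to 0.8 and 5 at 1 or above. Control 1 thus lay near one end of the scale more often than in its middle, but rarely reached the mean of controls 2 and 3. The 853 genes were chosen for high values in controls 2 and 3 and not in control 1, which favours positions under 1. Of the 300 genes, 73 were at positions below 0, 116 between 0 and 0.2, 75 between 0.2 and 0.4, 29 between 0.4 and 0.6, and 7 between 0.6 and 0.8. The choice of the 300 required control 1 to be at least 1 below both other controls, so their low positions are not a result.

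**Figure D2:**
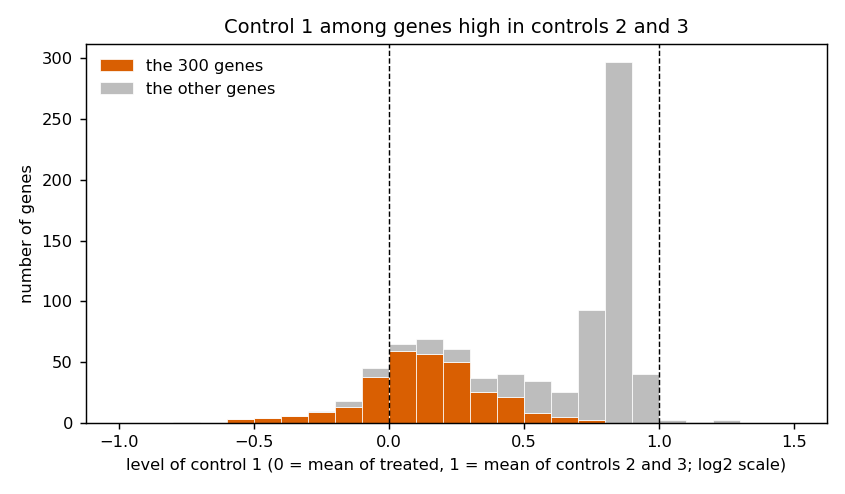
Position of control 1 on the log2 scale between the mean of the 6 treated libraries (0) and the mean of controls 2 and 3 (1), for the 853 genes that were at least 1 log2 unit higher in controls 2 and 3 than in every treated library; bars count genes in steps of 0.1, positions outside the axis are drawn at its ends, and the 300 genes are in orange. The other genes crowd between 0.8 and 1, a range that holds 337 genes and 0 of the 300. The low positions of the 300 follow from their choice.

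The limit of 300 genes cut through a continuous range. The members with the smallest gap were HF086_008523, HF086_002852 and HF086_013487, all with a gap of 1.22. The next genes, left out, were HF086_006832, HF086_010180 and HF086_017453, with gaps of 1.22, 1.21 and 1.21. HF086_013487 had values of 3.19 in control 1, 36.2 in control 2 and 31.2 in control 3. HF086_006832 had 6.34, 19.8 and 28.8 in the same order. The genes on either side of the limit had nearly equal gaps.

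Among the 300 genes, the highest mean over controls 2 and 3 belonged to HF086_014523. Its normalized values were 1.02, 879 and 4153 in controls 1, 2 and 3, followed by 1.78, 5.57 and 0.799 under SFN and 0.851, 0 and 0 under TSA. It was thus high in a pair of the pools and at or under 5.57 in the other 7. HF086_011919 had the same form, with 2.14, 326 and 3580 in the controls, 1.66, 3.41 and 0.533 under SFN, and 0.425, 0 and 0 under TSA. HF086_009011 had 0.814, 899 and 2748 in the controls, 1.04, 2.95 and 0.666 under SFN, and 0.387, 0 and 0.0291 under TSA. In all 3 of these genes control 3 was well above control 2.

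The other genes of the 10 most abundant kept a clear level in every library. HF086_003891 had 435, 1755 and 2381 in the controls, 381, 138 and 310 under SFN, and 282, 486 and 401 under TSA. Control 1 lay within the range of the treated libraries. In HF086_012418 control 1 also lay within that range, with 101, 2515 and 1393 in the controls, 76.04, 119 and 140 under SFN, and 86.4, 248 and 91.4 under TSA. HF086_009145 had 26.8, 3771 and 974 in the controls, and here control 1 lay below every treated library, which held 227, 92.7 and 163 under SFN and 59.6, 93.6 and 102 under TSA. HF086_004684 was alike in that control 1, at 59.8, was under the lowest treated value of 82.02, while controls 2 and 3 had 2464 and 1172. HF086_014042 showed the opposite order, with 502 in control 1 against a highest treated value of 349, and 1829 and 1258 in controls 2 and 3. HF086_012640 had 107, 1703 and 1220 in the controls and 56.7 to 368 in the treated libraries. HF086_005092 is described with the comparison of the inhibitors.

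**Figure D3:**
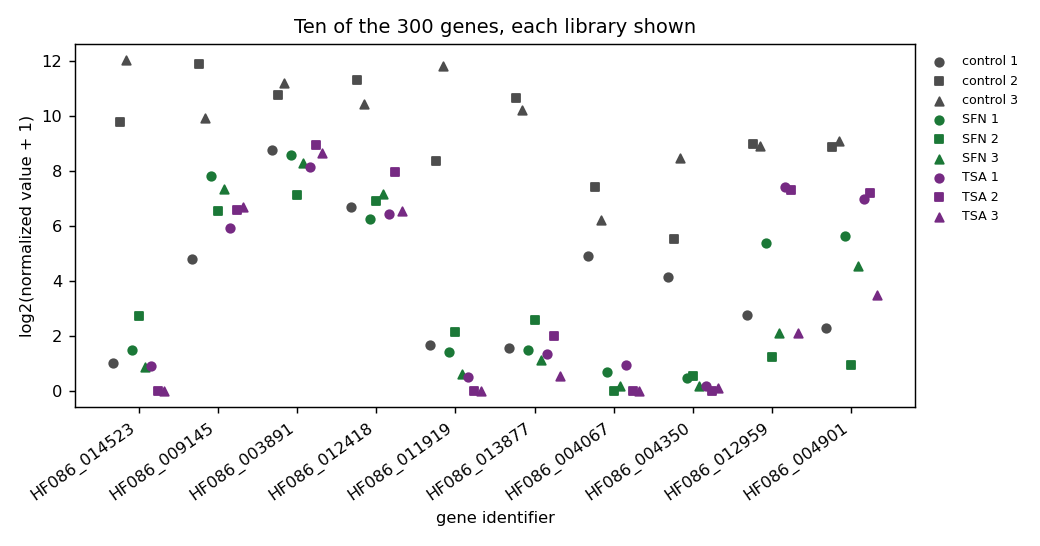
A selection of 10 of the 300 genes in all 9 libraries, as log2(normalized value + 1); colour marks the treatment and the symbol the replicate number. HF086_014523, HF086_011919 and HF086_013877 had normalized values of at most 5.57, 3.41 and 5.00 outside controls 2 and 3, HF086_003891 and HF086_012418 kept a level in every library, and HF086_012959 and HF086_004901 were highest, outside controls 2 and 3, in TSA replicates 1 and 2.

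The genes were also described by the highest level outside controls 2 and 3, which is itself a value of the choice. In 67 of the 300, no library other than controls 2 and 3 exceeded a normalized value of 5, and in 12 none reached 1. In a further 112 the highest of the 7 lower libraries was between 5 and 20, in 83 between 20 and 100, and in 38 at 100 or over. The 67 genes had a median of 49.0 for the mean over controls 2 and 3, close to the 54.1 of the next class, while the classes above had 173 and 930. The genes that were lowest outside controls 2 and 3 are called near-absent here. Among the 402 values of these 67 genes in treated libraries, 39 were 0, and over all 300 genes 30 had a count of 0 in at least 1 treated library. A count of 0 allows up to 3 counts, which is a normalized value of 0.0874 in TSA replicate 3 and 0.341 in SFN replicate 2.

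The 6 largest gaps were those of HF086_009011, HF086_013877, HF086_012677, HF086_004311, HF086_004427 and HF086_014523, from 7.83 to 7.07. HF086_013877 had 1.93, 1625 and 1181 in the controls, 1.81, 5.00 and 1.17 under SFN, and 1.51, 3.00 and 0.466 under TSA. HF086_012677 had 0.509, 607 and 1417 in the controls and at most 2.16 elsewhere. HF086_004311 had 0.848, 422 and 355 in the controls and at most 1.14 elsewhere. HF086_004427 had 0.712, 526 and 392 in the controls and at most 1.59 elsewhere. Each of these 6 genes was still detected in control 1, at normalized values between 0.509 and 1.93.

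The small remainder in these genes was not equal between libraries. SFN replicate 2 was the highest of the 7 lower libraries in 5 of the 6, with 49 reads of HF086_014523, 26 of HF086_009011, 19 of HF086_012677, 44 of HF086_013877 and 10 of HF086_004311. These amounted to 0.108% to 0.423% of the normalized value in control 3. TSA replicate 2 had 0 reads of HF086_014523, HF086_009011 and HF086_012677, but 66 of HF086_013877. SFN replicate 2 had the lowest depth of all libraries, and the part of depth in these values was not tested. Over the 67 near-absent genes, the highest of the 7 libraries was control 1 in 25, SFN replicate 2 in 16, SFN replicate 1 in 14 and TSA replicate 2 in 6.

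Controls 2 and 3 held these genes at similar but not equal levels. The median of control 3 minus control 2 was -0.34 on the log2(value + 1) scale, with quartiles of -0.63 and 0.08, against 0.05 over all genes of the table. Control 3 was the higher in 93 of the 300 genes, against 6628 of all 12380. The 300 genes thus lay more often higher in control 2, by 0.39 relative to all genes. This difference was 0.29 with scaling by library size only and 0.38 with DESeq2's size factors. It is a comparison of a pair of libraries, without replicates.

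A few genes departed widely from this. Control 3 was at least 1 log2 unit above control 2 in 14 genes and at least 1 below it in 26. HF086_002105, chosen after its values were seen, had 12.7 in control 2 and 205 in control 3. HF086_005708, chosen in the same way, had 105 and 7.63. HF086_011919 and HF086_014523 were 3.45 and 2.24 higher in control 3 on this scale.

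**Figure D4:**
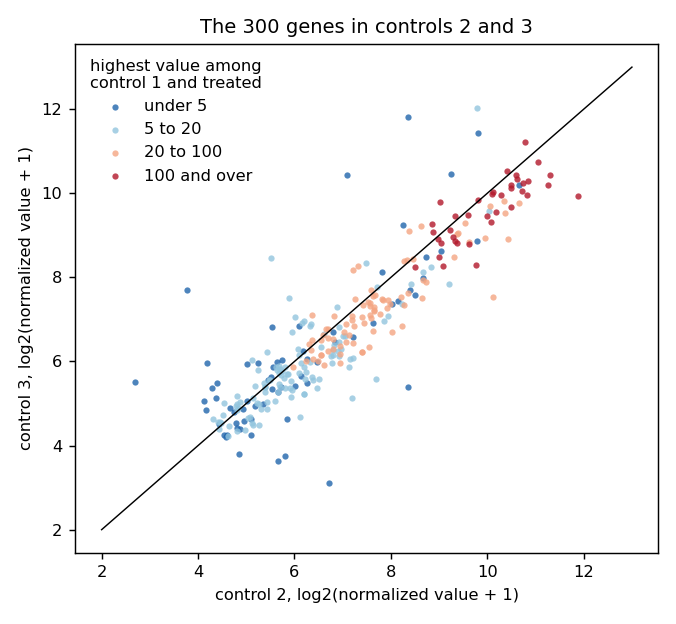
The 300 genes in control 2 (x axis) and control 3 (y axis), both as log2(normalized value + 1), coloured by the highest normalized value among control 1 and the 6 treated libraries; the line marks equal values. Most points lie a little under the line (median difference -0.34), and the differences run from -3.62 to 3.91.

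Control 1 and the treated libraries both entered the choice of genes, so that where control 1 stood among them is given as a description. It was above all 6 treated libraries in 117 genes, below all 6 in 17 and within their range in 166. Over all 12380 genes it was above in 24.5% and below in 14.3%, beside 39.0% and 5.67% of the 300. Nothing is read from this difference, since the genes of the whole table were not chosen for low treated values. The median of control 1 minus the mean of the treated libraries was 0.40, against 0.03 over all genes. The same limit holds for this median. With scaling by library size only, the count above all treated libraries was 59 and the median 0.06, but the median over all genes then shifted to -0.26. Relative to all genes, the difference was 0.36 with TMM, 0.33 with library size and 0.36 with DESeq2's size factors. Control 1 is a single library, so no error can be given for its position.

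HF086_004067, HF086_004350 and HF086_011875 had control 1 furthest above the treated libraries. HF086_004067 had 29.2, 169 and 73.9 in the controls, 0.594, 0 and 0.133 under SFN, and 0.928, 0 and 0 under TSA. HF086_004350 had 16.7, 44.6 and 352 in the controls and at most 0.455 under either inhibitor. HF086_011875 had 10.9, 26.7 and 29.6 in the controls and at most 0.348 under either inhibitor. In these genes the 3 controls did not overlap the 6 treated libraries, and control 1 was intermediate. At the other end stood HF086_009145, HF086_007206 and HF086_001308. HF086_007206 had 9.67, 122 and 61.0 in the controls, 20.8, 23.9 and 15.0 under SFN, and 24.9, 23.9 and 23.1 under TSA. HF086_001308 had 2.17, 79 and 114 in the controls, 9.24, 12.8 and 8.49 under SFN, and 4.64, 3.64 and 6.18 under TSA. In all 3 of the latter, control 1 was the lowest library.

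The choice did not use SFN and TSA as separate groups, since both were required to be low, and their comparison was the one tested. The choice did limit the highest treated library. A gene kept high by either inhibitor was therefore left out, which restricts how far SFN and TSA can differ in these genes. For the 300 genes, the means under the 2 inhibitors were compared first. The median of the SFN mean minus the TSA mean was 0.01 on the log2(value + 1) scale, with the central 90% of genes between -0.99 and 0.73, against a median of 0.02 over all genes. The SFN libraries lay entirely above the TSA libraries in 16 genes (5.33%, against 5.61% of all genes) and entirely below them in 8 (2.67%, against 4.46%). Together these were 8.0% of the 300, beside 10.1% of all genes of the table. Nothing is read from these shares, since the genes of the whole table were not chosen for low treated values.

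**Figure D5:**
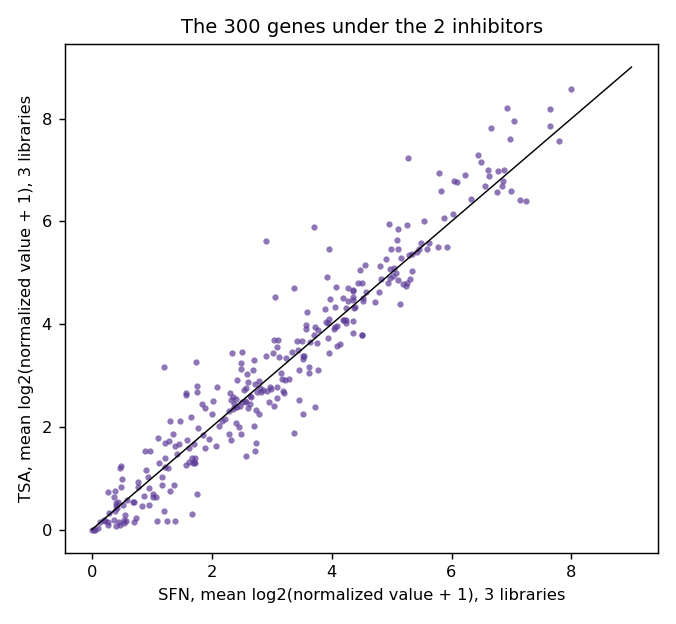
Mean log2(normalized value + 1) of each of the 300 genes over the 3 SFN libraries (x axis) and the 3 TSA libraries (y axis); the line marks equal means. The points scatter along the line with a median difference of 0.01.

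In the model of all *S*. *exigua* genes, 0 differed between SFN and TSA by the quasi-likelihood test of edgeR after Benjamini-Hochberg adjustment. Of the 5497 genes with a mean CPM (counts scaled to equal library totals) over 10, 237 were among the 300. All 300 were tested with a mean CPM over 1, where 0 of 10338 genes were called. At an unadjusted p under 0.05, 1 of the 237 and 2.33% of all tested genes differed (1 of the 300 and 3.11% with the lower filter). The percent of genes called was 0.309% with edgeR's likelihood ratio test, which called 0 of the 237, and 0.855% with DESeq2's Wald test, which called 1. The fitted log2 fold changes of the 237 genes had a median of 0.17 and a central 90% from -0.995 to 1.79. The median turned to -0.44 without SFN replicate 1 and to -0.05 without TSA replicate 3, and was 0.59 without TSA replicate 1, so that no direction can be given. That the tests called so few genes does not show that the inhibitors acted alike. In simulated counts the quasi-likelihood test called 0% of genes changed 4-fold and 78% of those changed 16-fold. These genes were picked at random from all tested genes, each at its mean level over all 9 libraries. The 300 genes were on average below that mean under SFN and TSA, so the percents may not hold for them.

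The single gene was HF086_007112. It had 4.34, 14.8 and 12.3 under SFN and 1.12, 2.14 and 6.59 under TSA, with 15.1, 56.4 and 50.9 in the controls. The groups overlapped at their edges. Its log2 fold change of SFN against TSA was 1.97 (standard error 0.50, unadjusted p = 0.00705, adjusted p = 1.0 by the quasi-likelihood method of edgeR). DESeq2's Wald test gave 1.95 with an adjusted p of 0.0419. With other settings, the adjusted p from edgeR ranged from 0.189 to 1.0, and the log2 fold change from 1.49 to 2.54.

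The next genes by unadjusted p had adjusted p values of 0.804 to 1.0 in the edgeR and DESeq2 fits that tested them. HF086_007985 was tested only in fits with the lower filter or none. HF086_005846 had 13.4, 17.3 and 7.79 under SFN and 4.18, 3.27 and 5.57 under TSA, without overlap. HF086_007985 had 5.11, 7.84 and 2.93 under SFN and 1.93, 1.14 and 2.13 under TSA, again without overlap. HF086_005092 had 27.0, 27.3 and 71.0 under SFN and 215, 213 and 71.8 under TSA, with 108, 2133 and 1703 in the controls. Its log2 fold change was -2.05 (standard error 1.08, adjusted p = 1.0 by the quasi-likelihood method of edgeR). HF086_014778 had 99.2, 219 and 80.4 under SFN, below the 232, 357 and 301 under TSA, and control 1 at 212 lay among the SFN libraries.

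Within the treated libraries, a smaller number of the genes varied strongly. The standard deviation over the 6 treated libraries had a median of 0.51 on the log2(value + 1) scale, against 0.41 over all genes, and was at least 1 in 32 of the 300. The highest treated library in these 32 was TSA replicate 2 in 10, TSA replicate 1 in 9 and SFN replicate 1 in 7, and the lowest was SFN replicate 2 in 17. The genes with the widest spread, named here after their values were seen, were HF086_012959, HF086_004901 and HF086_017972. HF086_012959 had 40.3, 1.36 and 3.26 under SFN and 170, 158 and 3.29 under TSA, with 5.80, 503 and 483 in the controls. HF086_004901 had 48.3, 0.909 and 22.2 under SFN and 126, 146 and 10.1 under TSA, with 3.87, 469 and 538 in the controls. HF086_017972 had 69.8, 1.93 and 1.73 under SFN and 37.2, 27.5 and 10.4 under TSA, with 21.9, 224 and 178 in the controls. In all 3 genes TSA replicates 1 and 2 and SFN replicate 1 were the highest treated libraries, so that the order crossed the treatments. Depth was lowest in SFN replicate 2, and its part in these values was not tested.

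Because the genes were chosen on the difference between controls 2 and 3 and the treated libraries, the comparisons with control can only be described. With the replicate number as a block, the quasi-likelihood test called 0 of the 237 tested genes for SFN and 0 for TSA, with a background of 0% called as fallen in both. At an unadjusted p under 0.05 (edgeR) there were 197 and 210, all of them lower than in the control. Of all tested genes, 33.8% and 32.8% had such a p in either direction, so these shares are not of fallen genes alone. By likelihood ratio 183 and 207 were called, beside 11.0% and 12.3% of all tested genes as fallen, and by DESeq2 214 and 224, beside 16.3% and 17.0%. The fitted log2 fold changes had medians of -2.79 and -2.97. Without the block, 141 and 156 of the genes were called as fallen, beside 10.0% and 10.1% of all tested genes. Without control 1 and with the block, 234 and 237 of 246 were called, beside 15.9% and 16.8% of all tested genes, and the medians became -3.56 and -3.78. Both contrasts use the same controls. The number of calls thus changed both with the block and with control 1.

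For comparison, 404 genes were taken that had all 3 controls at least 1 log2 unit above every treated library, with a mean of at least 20 over the controls and outside the 100 most abundant. In these the median of control 1 minus the mean of controls 2 and 3 was -0.78, against -2.83 in the 300 genes and -0.01 over all genes. The choice of the 300 required a low control 1 and that of the 404 a high control 1, so this difference is not a result. In 22 of the 404, control 1 was at least 1 below both other controls. The SFN and TSA libraries were without overlap in 2.23% of the 404 genes and in 8.0% of the 300, beside 10.1% of all genes of the table. The sets share genes, HF086_004067 among them. Both were chosen on these libraries, and the difference between them was not tested.

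The identifiers of the genes were not spread evenly. They are numbered in series, and some of the 300 belonged to runs of consecutive numbers, 42 of them to 21 runs of 2 genes and 15 to 5 runs of 3. The gene with the next number was itself one of the 300 for 10.3% of the 300 genes and for 1.68% of the other genes in the table. Consecutive numbers also occurred among those of the 853 genes that were not members, as in HF086_005253, HF086_005254 and HF086_005255. Runs are thus not particular to the 300. Whether consecutive numbers are neighbours in the genome, or copies of one gene among which reads could be shared, was not examined for want of an annotation. The runs of 3 genes began at HF086_001211, HF086_008038, HF086_012122, HF086_013877 and HF086_017364. HF086_012122 and HF086_012123 had similar profiles. The former had 1.59, 281 and 173 in the controls and at most 1.48 in the treated libraries. HF086_012123 had 2.00, 338 and 206 in the controls and at most 0.955 in the treated libraries. HF086_012124, the next in number, had 55.9, 1298 and 907 in the controls and kept 21.3 to 84.3 in the treated libraries. HF086_017364, HF086_017365 and HF086_017366 had 137, 18.3 and 16.5 in control 1 and 1439, 169 and 226 in control 2. The members of these runs differed in abundance.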

How the data were processed

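RNA-seq libraries of *S*. *exigua* fat body (3 control, 3 SFN and 3 TSA) were assigned to groups from the sample labels, and 0 columns were unmapped. The authors trimmed reads with Trimmomatic 0.39, aligned them with HISAT2 2.2.1 to an *S*. *exigua* genome of the TB_SE_WUR_2020 isolate and counted them per gene with featureCounts. The authors deposited these raw counts and a table of normalized signal, in which counts were divided by 1 factor per library (a TMM scaling). That table holds 12380 of the 16854 genes with a count. Multiplied back, 100% of the normalized values were whole reads (tolerance 0.01).

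The 300 genes were selected on the normalized values as the report describes. Genes, lists and tests were chosen with earlier results of these data known. Lists of functions and tissue markers, meant for product names, were not applied, since no *S*. *exigua* names were at hand. Named genes were the 10 with the highest mean in controls 2 and 3, the 6 with the largest gap, 3 on either side of the limit (set by the limit of 300 genes), the 5 with the lowest p for SFN against TSA, and 3 at each extreme of control 1. Others are marked as chosen after their values were seen.

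Raw counts of genes with a mean CPM over 10 were fitted in R 4.3.3 with edgeR 4.0.16 (TMM, treatment and replicate number as a block, quasi-likelihood test, Benjamini-Hochberg adjusted p under 0.05 over all genes). The block is a reading of the study's methods, which speak of pairing triplicates. The fit and the selection were tested on simulated data. With 200 genes changed between SFN and TSA, the fit called 0% of them at 4-fold, 78% at 16-fold and 95% at 64-fold. The simulation set each gene's level to its mean over all 9 libraries. The alternatives were DESeq2 1.42.0, edgeR's likelihood ratio test, other scalings and filters, no block, fits of only the treatments compared, and each library left out in turn. Depth ranged from 6352561 to 35157218 counts. The labels do not say whether pools of one group came from separate rearings, so that p-values measure the spread between pools. Figures used matplotlib 3.10.9.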

Additional observations from a re-analysis of the deposited data

How the results depend on the processing

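Between SFN and TSA, 17 genes were called by likelihood ratio and 47 by DESeq2, of which 0 and 1 were among the 300. The other settings called 0, as did every fit with 1 library left out. Among the 300 genes, the median fold change (log2) of SFN against TSA ranged from -0.44 to 0.59 with 1 library left out. The counts of the 300 genes called against control follow, all of them lower than in the control, each with the percent of all tested genes called as lower. For SFN they were 0 with the replicate block (0%), 141 with no replicate block (10.0%), 28 with library size only (3.53%), 45 with a mean CPM over 1 (7.16%), 68 with no filter (5.87%), 214 with DESeq2 (16.3%), 7 in a fit of just the compared treatments (4.2%) and 183 by likelihood ratio (11.0%). With 1 library left out they ranged from 0 to 234, with 234 without control replicate 1 (15.9%) and 6 without TSA replicate 1 (3.19%). For TSA they were 0 with the block (0%), 156 with no replicate block (10.1%), 0 with library size only (0%), 50 with a mean CPM over 1 (7.63%), 72 with no filter (6.04%), 224 with DESeq2 (17.0%), 0 in a fit of just the compared treatments (0%) and 207 by likelihood ratio (12.3%). With 1 library left out they ranged from 0 to 237, with 237 without control replicate 1 (16.8%) and 3 without TSA replicate 1 (2.08%). Settings added after seeing the data gave, for SFN and TSA, 187 (12.7%) and 198 (13.4%) with a mean CPM over 1 and no replicate block, 239 (19.1%) and 239 (19.3%) with no replicate block and without control replicate 1, and 0 (0%) and 8 (3.66%) with a mean CPM over 1 and without SFN replicate 2. Since the genes were chosen on these libraries, nothing is read from the differences between these shares. The causes were not tested. The lower filters admitted all 300 genes but also changed the set over which the fit was made.

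The data did not show that the replicate numbers pair the libraries. Deviations from the treatment means correlated between same-numbered libraries at 0.475 for SFN and TSA replicates 1 but between -0.189 and 0.093 for the other 8 pairs. Between differently numbered libraries the correlations ran from -0.419 to 0.355. With 3 libraries per treatment, these values cannot settle whether the libraries were paired.

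The thresholds were met by 364 genes, by 144 with a gap of at least 2, by 233 with library size only (219 of the 300 among them), by 406 with DESeq2's size factors (299) and by 331 with a pseudocount of 5 (294). Leaving out 1 library gave 368 to 897 genes, with 853 without control 1, 897 without control 2 and 557 without control 3. Control 1 was above every treated library in 117 of the 300 genes and in 59 with library size only. Its median excess over the treated mean was 0.40, 0.063 with library size only, 0.24 with a pseudocount of 5, and 0.35 to 0.45 with 1 treated library left out. Depth limits the near-absent genes most in SFN replicate 2, where 3 counts are a normalized value of 0.341.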
